A study of Mus musculus with 6 samples.

Results

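The genes described here encode glutamate receptors and the postsynaptic proteins that hold, modify and traffic them, measured in the cortex of wild-type and Sam68:Slm2 double knockout (dKO) mouse embryos. They were chosen by gene symbol as 37 listed genes, and each symbol matched 1 of the 59484 features in the deposited table. They comprise 4 AMPA receptor genes, 4 kainate receptor genes, 6 NMDA and delta receptor genes, 6 metabotropic receptor genes, 13 scaffold genes and 4 kinase and trafficking genes. All 37 passed the filter on low values, a mean of at least 10 normalized counts over the 6 libraries. Cortex was taken at embryonic day 18.5 (E18.5) from 3 wild-type and 3 dKO embryos, and polyA+ RNA was sequenced as 150 bp read pairs. The dKO embryos lack both Sam68 and SLM2, related RNA-binding proteins that regulate splicing, and came from crosses between Sam68+/-:Slm2-/- mice of the C57BL/6 strain. The parents therefore already lacked SLM2. Such crosses give no wild-type embryos, so genotype cannot be told apart from litter or from the lack of SLM2 in the mother. The labels do not say whether embryos of the same genotype shared a litter, so that *P*-values measure the spread between these samples only.

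Fast excitatory transmission in the cortex runs through ionotropic glutamate receptors. AMPA receptors carry most of the fast current, kainate receptors modulate release and excitability, and NMDA receptors admit calcium when glutamate binding coincides with depolarization. Metabotropic receptors signal through G proteins. In the postsynaptic density, membrane-associated guanylate kinases of the Dlg family bind the receptors, SAPAP proteins (Dlgap genes) link them to Shank proteins, and Homer proteins join Shank to group I metabotropic receptors. In late embryonic cortex synapses are only beginning to form, and many of these genes are known to increase after birth.

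The libraries held between 31837922 and 40896541 reads on the listed features, recovered from the deposited normalized counts. *Khdrbs1*, which encodes Sam68, had a mean of 152.4 ± 41.5 normalized counts in dKO cortex (SD, n = 3), or 1.9% of the wild-type mean of 8213 ± 232. *Khdrbs3*, which encodes SLM2, kept 48.1% of the wild-type level over the whole gene, with 6652 ± 366 against 13840 ± 1250 normalized counts, while *Khdrbs2*, their paralog that encodes SLM1, stood at 526.5% of wild-type. Markers of cortical excitatory neurons were abundant in every library, with summed levels of 238400 to 263300 normalized counts in the wild-type and 266900 to 305000 in the dKO libraries, whereas the 5 choroid plexus markers summed to at most 108.7. The tissue is bulk cortex, in which fewer cells of a type and less RNA per cell cannot be told apart.

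Promoter sequences from RefSeq (GRCm38.p6, 250 bases before to 50 bases after the start) were held for 24 of the 37 genes. *Grin3a*, *Grm5*, *Grik1* and *Grm4*, which had some of the larger fold changes, were not among them. The sequences upstream of the annotated exons are printed for 3 of the genes that passed the unadjusted threshold below and had an entry, *Grik2* and *Shank3*, which were lower in dKO cortex, and *Homer3*, which was higher. The *Homer3* stretch is only 78 bases long, compared with 238 for *Grik2* and 250 for *Shank3*. Capitals mark the GC box GGGCGG on either strand.
Grik2, chr10:49788767-49789004, minus strand: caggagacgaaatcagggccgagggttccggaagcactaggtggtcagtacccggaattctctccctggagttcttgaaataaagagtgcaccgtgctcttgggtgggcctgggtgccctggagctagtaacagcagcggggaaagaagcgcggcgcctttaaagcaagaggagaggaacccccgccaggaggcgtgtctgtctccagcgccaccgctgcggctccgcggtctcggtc
Shank3, chr15:89499358-89499607, plus strand: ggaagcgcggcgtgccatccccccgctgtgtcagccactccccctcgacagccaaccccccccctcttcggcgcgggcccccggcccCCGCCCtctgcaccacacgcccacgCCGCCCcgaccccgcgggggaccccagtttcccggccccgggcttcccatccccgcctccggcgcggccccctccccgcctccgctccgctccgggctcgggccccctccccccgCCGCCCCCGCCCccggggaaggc
Homer3, chr8:70282749-70282826, plus strand: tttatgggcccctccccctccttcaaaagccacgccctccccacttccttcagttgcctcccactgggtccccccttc

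The *Shank3* stretch is 82.4% G and C and holds 4 GC boxes, whereas the *Grik2* stretch (61.8%) and the *Homer3* stretch (62.8%) hold 0. Over the 24 windows, the GC box was present in 13 (54.2%), compared with 35.6% of all 27025 promoter windows of the same length. The TATA box letters TATAAA were found in 1 window (4.17%), compared with 14.1% of all, and the CRE half-site TGACG in 5 (20.8%), compared with 20.7% of all, each searched on both strands. The median G and C content of the 24 windows was 65.2%, and that of all windows was 52.7%. These are matches of letters, not measured binding sites.

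To ask whether the loss of both proteins changed the abundance of these transcripts, limma was fitted to log2(normalized count + 1) of the 18970 features that passed the filter. Fold changes are given on that log2 scale as dKO minus wild-type. None of the 37 genes had a Benjamini-Hochberg adjusted *P*-value under 0.05 in limma or edgeR, and 1, *Grin3a*, did in DESeq2. In limma such a call was made for 19 of all features (0.1%), and in DESeq2 for 1.06%. On simulated data DESeq2 made 48 false calls at this threshold and limma 19. As a set, calls at this threshold in DESeq2 alone therefore carry less weight. Of the features given a log2 fold change of size 1 there, DESeq2 called 74 and limma 66. The rate of false calls at an adjusted *P*-value as low as that of *Grin3a* in DESeq2 (0.0001) was not tested. At an unadjusted *P*-value under 0.05, 11 genes (29.7%) passed, 10 lower and 1 higher in dKO cortex, where 11.5% of all features passed (6.58% lower, 4.92% higher). The genotypes did not overlap for 10 genes (27.0%), 8 lower and 2 higher, where 16.4% of all features did not overlap (8.48% lower, 7.89% higher). The share of genes below wild-type was 75.7% (28 of 37), and their median log2 fold change was -0.17; for all features the share was 49.4% and the median 0.0.

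Of the 20 receptor genes, 18 (90.0%) had a negative fold change, compared with 49.4% of all features. At an unadjusted *P*-value under 0.05, 9 of them (45.0%) were lower, compared with 6.58% of all features, and their median was -0.31. Of the 17 scaffold, kinase and trafficking genes, 10 had a negative fold change, 1 was lower and 1 was higher at that threshold, and their median was -0.06. The difference between both sets was not tested. The 95% confidence interval lay inside a 1.5-fold change in either direction for 22 of the 37 genes (59.5%). Of these, 7 were receptor genes and 15 were scaffold, kinase or trafficking genes. The share was 54.6% for all features and 65.3% for the tested features with a gene symbol, which all 37 genes have. For the remaining 15 genes, a change of 1.5-fold was not excluded by the interval.

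**Figure D1:**
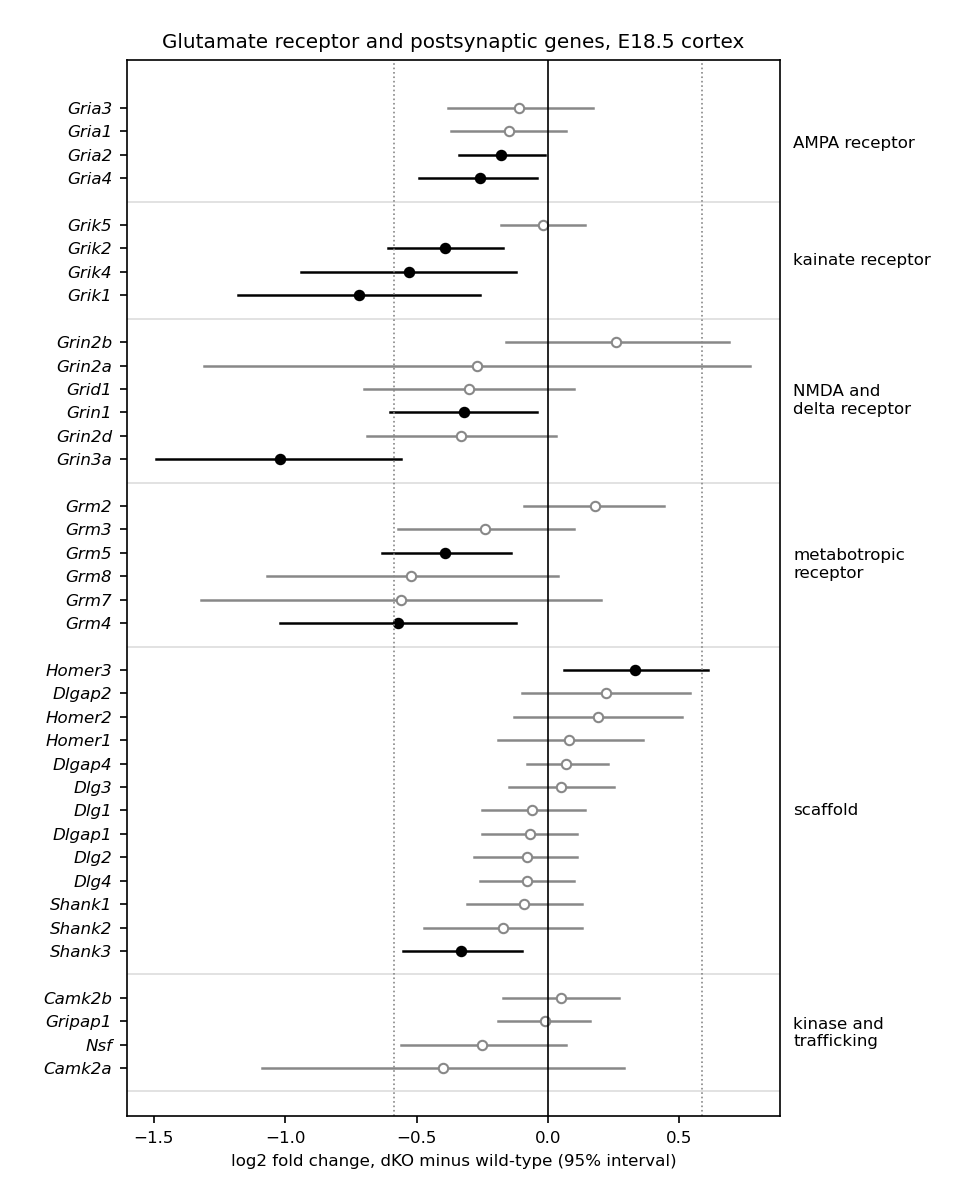
Log2 fold change (dKO minus wild-type) of the 37 genes by class, with 95% confidence intervals from limma (n = 3 libraries per genotype). Filled black points are the 11 genes with an unadjusted *P*-value under 0.05, and dotted lines mark a 1.5-fold change; kainate, NMDA and delta, and metabotropic receptor genes lie mostly left of 0, and scaffold genes lie on both sides of it.

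Of the 4 AMPA receptor genes, *Gria2* and *Gria4* were lower in dKO cortex at the unadjusted threshold, and *Gria1* and *Gria3* did not pass it. The class median was -0.16. *Gria2* (chr3:80681452-80802836, mm10) encodes the subunit whose editing makes AMPA receptors impermeable to calcium. Its wild-type libraries held 6293.3, 6011.8 and 5864.3 normalized counts and its dKO libraries 5366.1, 5220.3 and 5501.2, so that every dKO library lay below every wild-type library. The log2 fold change of *Gria2* was -0.18 (95% interval -0.34 to -0.01, unadjusted *P*-value 0.035, adjusted *P*-value 0.4). *Gria4*, a subunit prominent in the developing forebrain and in interneurons, held 1342.9, 1253.5 and 1324.7 normalized counts in wild-type and 1237.8, 1016.5 and 1027.6 in dKO libraries. The genotypes of *Gria4* did not overlap either, although dKO 1 lay just under wild-type 2, and the log2 fold change was -0.26 (95% interval -0.49 to -0.04, unadjusted *P*-value 0.026, adjusted *P*-value 0.393). *Gria3*, the AMPA gene with the lowest level per kilobase, held 1233.6, 1033.3 and 985.4 normalized counts in wild-type and 1136.2, 866.9 and 1020.7 in dKO libraries, which overlap (-0.11, 95% interval -0.38 to 0.17). *Gria1*, whose subunit is inserted at synapses during plasticity, overlapped likewise (-0.15, 95% interval -0.37 to 0.07).

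The makeup of the AMPA receptor transcripts, as the share of each gene in their summed level per kilobase, did not differ beyond the spread between libraries. The size of each share depends on the annotated exon length, which pools the exons of all transcripts (15.55 kb for *Gria2*, 6.04 kb for *Gria1*). The shares therefore compare genotypes and do not give the relative number of mRNAs of the genes. *Gria1* made up 34.2% ± 3.11 in wild-type and 34.8% ± 2.88 in dKO cortex, *Gria2* 36.3% ± 1.44 and 36.3% ± 1.65, *Gria3* 10.2% ± 1.28 and 10.7% ± 1.27, and *Gria4* 19.3% ± 0.688 and 18.2% ± 1.56 (SD, n = 3). Exact two-sided permutation tests gave *P*-values between 0.4 and 1.0, where 0.1 is the smallest that 3 against 3 libraries allow.

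Of the kainate receptor genes, *Grik1*, *Grik2* and *Grik4* were lower in dKO cortex at the unadjusted threshold, and *Grik5* was not. *Grik2* (chr10:49093681-49788766), which encodes the GluK2 subunit, held 1539.8, 1396.3 and 1740.3 normalized counts in wild-type and 1197.9, 1223.5 and 1136.7 in dKO libraries. The dKO libraries were tightly grouped under the lowest wild-type library, at 76.1% of the wild-type mean (-0.39, 95% interval -0.61 to -0.17, unadjusted *P*-value 0.00262, adjusted *P*-value 0.268). *Grik1* (chr16:87895897-88290265), which encodes GluK1, a subunit known from interneurons, held 246.3, 280.3 and 393.6 against 203.3, 203.9 and 146.1 normalized counts. Its genotypes did not overlap, wild-type 3 stood above the other wild-type libraries, and the log2 fold change was -0.72 (95% interval -1.18 to -0.26, unadjusted *P*-value 0.00555, adjusted *P*-value 0.318). *Grik4*, which encodes a high-affinity subunit that needs a partner to form channels, held 530.7, 378.1 and 482.2 against 303.1, 405.7 and 261.0 normalized counts. Here dKO 2 lay above wild-type 2, so that the genotypes overlapped (-0.53, 95% interval -0.94 to -0.12, unadjusted *P*-value 0.0157, adjusted *P*-value 0.363). *Grik5*, the other high-affinity subunit gene, held 9143.7, 8680.9 and 8561.9 against 8845.5, 8762.2 and 8364.8 normalized counts, an interval of -0.18 to 0.14 around -0.02.

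Among the NMDA and delta receptor genes, *Grin3a* (chr4:49661612-49845770) had the largest fold change of all 37 genes in the limma fit. It encodes GluN3A, a subunit of juvenile brain that lowers the calcium permeability of NMDA receptors. *Grin3a* held 912.1, 501.6 and 882.0 normalized counts in wild-type and 340.3, 401.6 and 350.3 in dKO libraries. All dKO libraries lay below wild-type 2, which was itself far below the other wild-type libraries. The dKO mean was 47.6% of wild-type (-1.02, 95% interval -1.49 to -0.56, unadjusted *P*-value 0.000608), with an adjusted *P*-value of 0.178 in limma, 0.155 in edgeR and 0.0001 in DESeq2. Leaving out wild-type 2 gave -1.3 with an adjusted *P*-value of 0.00676 in limma, a fit in which 0.153% of all features passed, and over all libraries left out in turn the adjusted *P*-value ranged from 0.00676 to 0.56.

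*Grin1* (chr2:25291177-25319187) encodes the obligatory NMDA receptor subunit and is 1 of 3 genes here, with *Dlgap4* and *Shank3*, that the study lists as spliced differently in dKO cortex. *Grin1* held 1567.4, 1103.1 and 1326.5 normalized counts in wild-type and 1080.8, 1115.8 and 981.2 in dKO libraries. The genotypes overlapped because wild-type 2 fell between the dKO libraries (-0.32, 95% interval -0.6 to -0.04, unadjusted *P*-value 0.0293, adjusted *P*-value 0.394). The antisense gene *Grin1os* overlaps it, and whether strand was used in counting is not given in the sources used here. *Grid1*, which encodes the delta receptor GluD1, held 1398.1, 878.6 and 1146.7 against 914.8, 1090.7 and 750.4 normalized counts, which overlap (-0.3, 95% interval -0.7 to 0.1). Its named feature had the highest level per kilobase of this class. That rank holds for named features only, which cover 61.5% of the annotated exon bases of *Grid1* and 33.2% of those of *Grin2b*. *Grin2d*, whose subunit is known from interneurons, was at 80.0% of wild-type with overlapping libraries (-0.33, 95% interval -0.69 to 0.03).

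*Grin2a* and *Grin2b* encode the subunits that exchange places as cortical NMDA receptors mature, with GluN2B dominant early. At the deposited feature of each gene, *Grin2a* held 181.7, 99.9 and 92.1 normalized counts in wild-type and 113.4, 178.8 and 46.4 in dKO libraries, and *Grin2b* held 253.0, 321.2 and 185.0 against 284.1, 314.8 and 290.0. Both overlapped, and their intervals were wide (-1.31 to 0.77 for *Grin2a*, -0.16 to 0.69 for *Grin2b*). The feature of *Grin2b* covers only 33.2% of its GENCODE M21 exon bases, and that of *Grin2a* 28.5%, since the long last exons hold features of their own without a symbol. The feature in the last exon of *Grin2b* (chr6:135713233-135714962) had a mean of 2330 ± 732 normalized counts in wild-type libraries and 2230 ± 332 in dKO libraries, or 921% of the wild-type level of the named feature. With that feature added, the log2 fold change of *Grin2b* was -0.0 in place of 0.26 (95% interval -0.43 to 0.42). For *Grin2a*, the feature at chr16:9567896-9571727 held 174.4 ± 56.3 and 124.1 ± 65.0, and the sum gave -0.45 (95% interval -1.47 to 0.56). Smaller features without a symbol lay at the 3′ ends of *Grid1* and *Shank2*, with 24.7% and 32.5% of the level of the named feature, and their sums gave -0.34 and -0.16. In *Homer1* such a feature (chr13:93358401-93360525) lay inside the gene, in the last exon of a shorter annotated transcript, with 25.5% of the level of the named feature and a sum at 0.07. These features were found after the values had been seen.

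**Figure D2:**
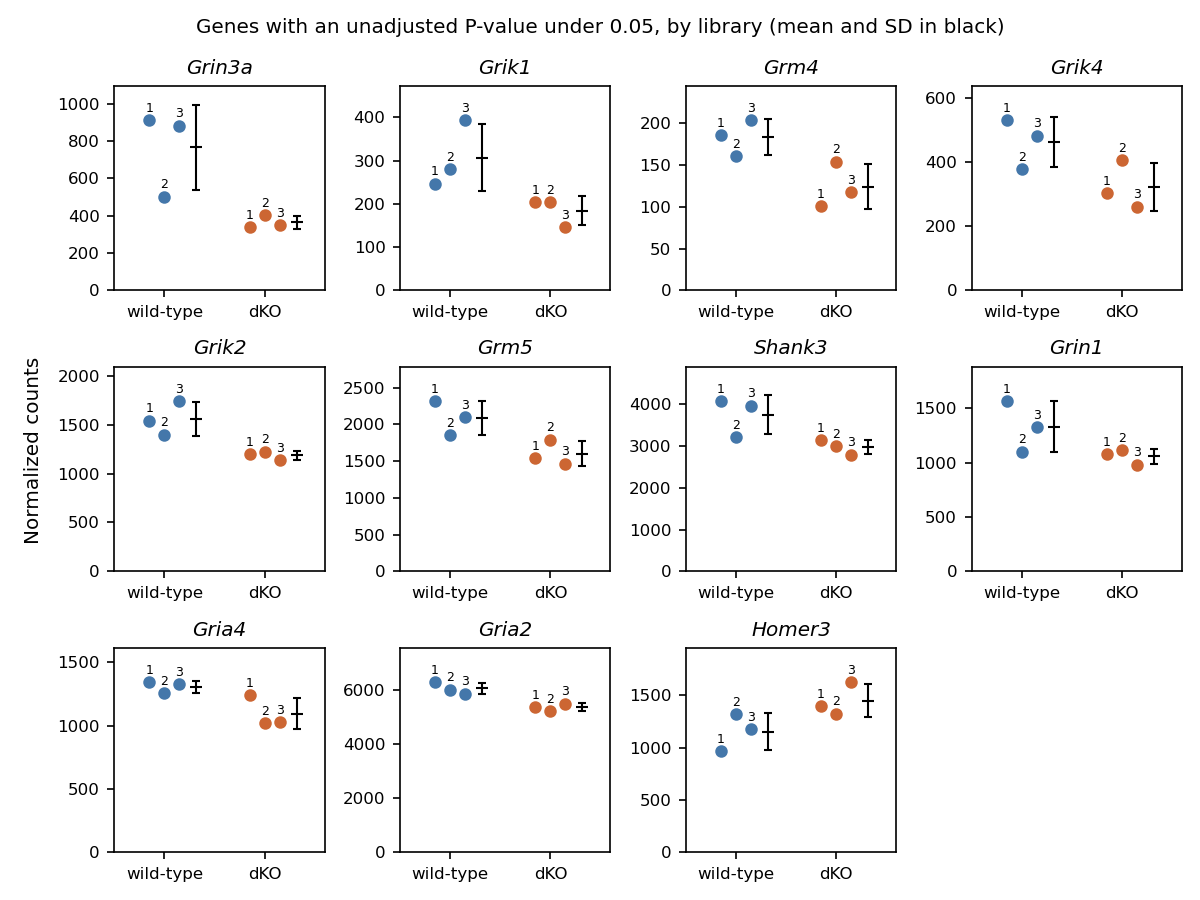
Normalized counts of the 11 genes with an unadjusted *P*-value under 0.05, by library (numbered points, blue for wild-type, orange for dKO), with the mean and SD of 3 libraries in black and axes starting at 0. *Grik4* and *Grin1* overlap between the genotypes, the other 9 do not, and only *Homer3* is higher in dKO cortex.

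Of the metabotropic receptor genes, *Grm5* and *Grm4* were lower at the unadjusted threshold, and the class median was -0.45. *Grm5* (chr7:87584168-88135063) encodes mGluR5, the main group I receptor of the forebrain and a partner of Homer proteins. *Grm5* held 2317.8, 1852.8 and 2103.2 normalized counts in wild-type and 1539.1, 1793.4 and 1467.2 in dKO libraries. Every dKO library lay below every wild-type library (-0.39, 95% interval -0.63 to -0.14, unadjusted *P*-value 0.00495, adjusted *P*-value 0.309). *Grm4*, which encodes a presynaptic group III receptor, held 185.5, 160.0 and 203.4 against 100.7, 153.7 and 117.1 normalized counts. The genotypes did not overlap, by a small margin between dKO 2 and wild-type 2 (-0.57, 95% interval -1.02 to -0.12, unadjusted *P*-value 0.0172, adjusted *P*-value 0.368). *Grm3*, a group II receptor gene with the highest level per kilobase of the class, held 1252.6, 950.6 and 810.1 against 823.1, 926.5 and 771.3 normalized counts (-0.24, 95% interval -0.57 to 0.1). *Grm8*, with the lowest level, held 183.6, 128.9 and 151.7 against 90.8, 153.7 and 87.0 (-0.52, 95% interval -1.07 to 0.04). Both overlapped, as did the group III gene *Grm7* (-0.56, 95% interval -1.32 to 0.2) and *Grm2*, the other group II gene and the only metabotropic gene above wild-type (0.18, 95% interval -0.09 to 0.44).

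The scaffold genes had a median of -0.06, and 12 of 13 had an interval inside a 1.5-fold change. *Dlg4*, which encodes PSD-95, held 19972.7, 18316.7 and 20862.0 normalized counts in wild-type and 19967.0, 18551.4 and 17571.7 in dKO libraries, which overlap (-0.08, 95% interval -0.26 to 0.1). *Dlg1*, *Dlg2* and *Dlg3*, which encode SAP97, PSD-93 and SAP102, had fold changes between -0.08 and 0.05. *Dlgap4* held 9426.2, 8849.6 and 9252.7 against 9886.4, 9349.9 and 9714.9 normalized counts, and its wild-type 1 lay above dKO 2 (0.07, 95% interval -0.08 to 0.23). *Dlgap2*, with the lowest level per kilobase of this class, held 226.4, 219.1 and 204.3 against 235.0, 277.1 and 244.7. All dKO libraries of *Dlgap2* lay above the wild-type libraries, but the difference did not pass the unadjusted threshold (0.22, 95% interval -0.1 to 0.54, unadjusted *P*-value 0.164, adjusted *P*-value 0.579).

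*Shank3* and *Homer3* were the scaffold genes that passed the unadjusted threshold, in opposite directions. *Shank3* (chr15:89499857-89560261) encodes a master scaffold that ties receptor complexes to the actin cytoskeleton. *Shank3* held 4068.7, 3210.5 and 3960.9 normalized counts in wild-type and 3131.8, 2990.8 and 2790.6 in dKO libraries, with dKO 1 just below wild-type 2 (-0.33, 95% interval -0.55 to -0.1, unadjusted *P*-value 0.00834, adjusted *P*-value 0.335). Its paralogs *Shank1* and *Shank2* overlapped between the genotypes, with -0.09 (95% interval -0.31 to 0.13) and -0.17 (95% interval -0.47 to 0.13). *Homer3* (chr8:70282999-70294361) held 967.3, 1316.9 and 1178.3 against 1395.7, 1326.0 and 1626.1 normalized counts, so that every dKO library stood above wild-type, though dKO 2 exceeded wild-type 2 by little (0.33, 95% interval 0.06 to 0.61, unadjusted *P*-value 0.0228, adjusted *P*-value 0.385). The features of *Ddx49*, which is antisense, and *Pik3r2* overlap *Homer3*, and how reads shared by them were counted is not given in the sources used here. *Homer1* and *Homer2* overlapped, with 0.08 (95% interval -0.19 to 0.36) and 0.19 (95% interval -0.13 to 0.51).

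None of the kinase and trafficking genes passed the unadjusted threshold. *Camk2b*, which encodes the calcium/calmodulin-dependent kinase subunit that predominates before birth, held 13651.8, 10821.6 and 11337.5 normalized counts in wild-type and 13423.0, 11845.1 and 11647.2 in dKO libraries (0.05, 95% interval -0.17 to 0.27). *Camk2a*, the subunit that takes over after birth, was far more variable, with 871.2, 498.4 and 1102.9 against 601.7, 764.4 and 451.2 (-0.4, 95% interval -1.09 to 0.29). Both genes overlapped between the genotypes. *Nsf*, an ATPase that binds the GluA2 tail, and *Gripap1*, an endosomal partner of the GRIP scaffold, had fold changes of -0.25 (95% interval -0.56 to 0.07) and -0.01 (95% interval -0.19 to 0.16).

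The levels per kilobase of exon spanned a wide range in wild-type cortex, from 1870 ± 123 normalized counts per kilobase for *Dlg4* to 15.7 ± 2.78 for *Grm8* (SD, n = 3). *Dlg4*, *Grik5* (1700 ± 59.5), *Camk2b* (1330 ± 168), *Shank1* (1300 ± 141) and *Dlgap4* (1090 ± 35.0) led the order. The wild-type libraries of *Dlg4* and *Grik5*, and of *Camk2b* and *Shank1*, overlapped, whereas *Grik5* was separate from *Camk2b*, *Shank1* from *Dlgap4*, and *Dlgap4* from *Gripap1* (758 ± 6.26), the next in order. Further down, separate neighbours were *Dlg3* (686 ± 72.2) above *Shank3* (418 ± 52.2), *Nsf* (309 ± 52.3) above *Gria4* (207 ± 7.5), and *Gria3* (110 ± 13.4) above *Homer1* (78.5 ± 10.1), and all other neighbours overlapped. *Gria2* (390 ± 14.0) and *Gria1* (367 ± 34.4) led the ionotropic receptor genes after *Grik5*. The order depends on annotated exon lengths pooled over all transcripts of a gene, 15.55 kb for *Gria2* and 6.04 kb for *Gria1*. The levels of *Grin2b* (30.7 ± 8.25) and *Grin2a* (24.4 ± 9.71) are those of their named features, which leave out most of the last exon. Their low places in the order are therefore not those of the whole genes.

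**Figure D3:**
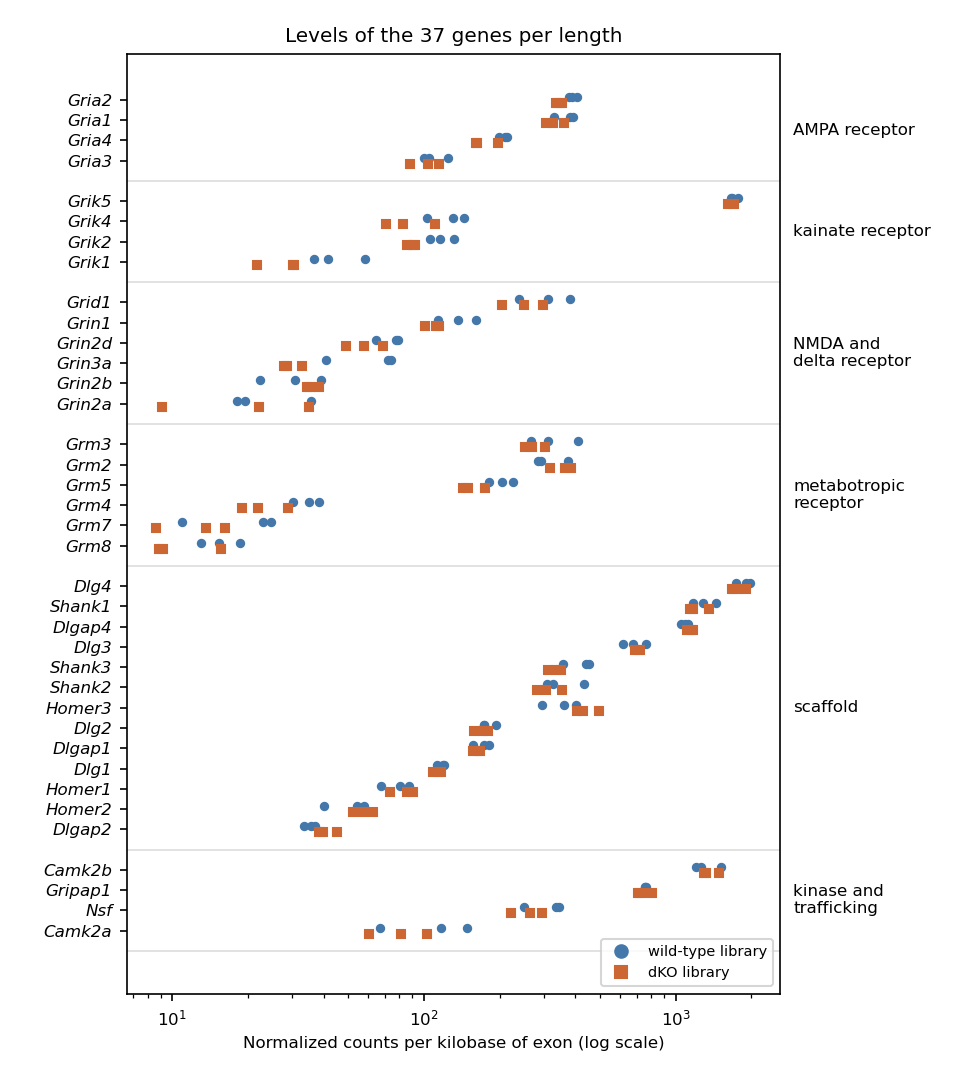
Normalized counts per kilobase of exon (log scale) of the 37 genes by class, with each wild-type library as a blue circle and each dKO library as an orange square. *Dlg4*, *Grik5*, *Camk2b*, *Shank1* and *Dlgap4* stand at the upper end, at wild-type means of 1090 to 1870 normalized counts per kilobase, and the order within each class is largely shared by both genotypes.

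Ratios within a library do not depend on its size factor, and 5 pairs of subunits or paralogs were tested by an exact permutation of the genotypes (two-sided). The log2 ratio of *Grin2b* to *Grin2a* was 1.06 ± 0.61 in wild-type and 1.59 ± 0.94 in dKO cortex (difference 0.54, exact *P*-value 0.6), and 3.12 ± 0.31 and 3.58 ± 0.73 with the last-exon features added (exact *P*-value 0.4). With a library left out, the difference in the former ranged from 0.01 (without dKO 3) to 0.93 (without dKO 2). *Dlg4* to *Dlg3* differed by -0.13, *Gria1* to *Gria2* by 0.03, *Camk2a* to *Camk2b* by -0.45 and *Shank3* to *Shank1* by -0.24, with exact *P*-values between 0.2 and 0.9 and adjusted *P*-values over the 5 ratios between 0.5 and 0.9. Leaving out a library moved the *Camk2a* to *Camk2b* difference between -0.71 (without wild-type 2) and -0.17 (without wild-type 3). The genotypes overlapped for every ratio, and none could have passed 0.05, since the smallest *P*-value this design allows is 0.1.

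**Figure D4:**
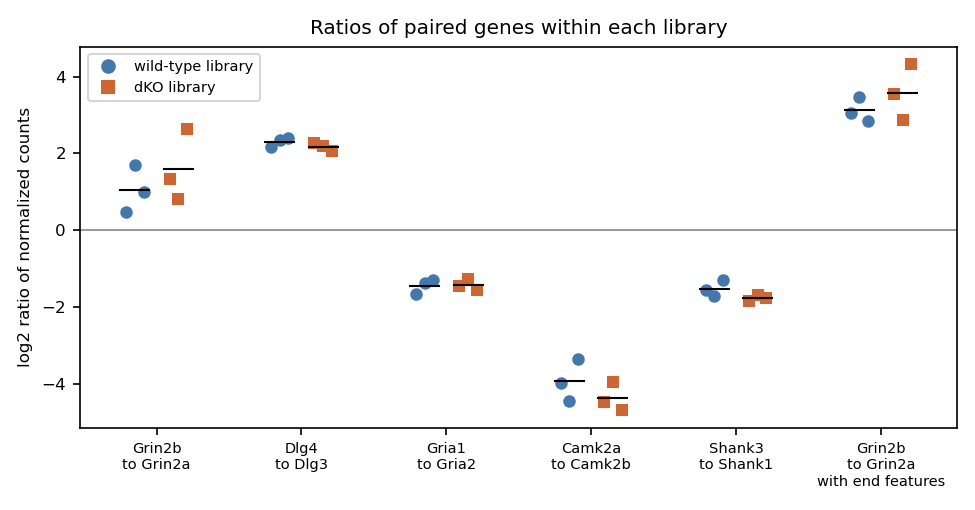
Log2 ratio of normalized counts within each library for 5 pairs of genes, and for *Grin2b* to *Grin2a* with the last-exon features added, with blue circles for wild-type, orange squares for dKO and black bars for the mean of 3 libraries. The genotypes overlap for each ratio.

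For 21 of the 37 genes wild-type 2 was the lowest wild-type library, and for 20 dKO 3 was the lowest dKO library. The median deviation of the 37 genes from their mean over all libraries was 0.18 in wild-type 1 and -0.15 in dKO 3, and lay between -0.03 and 0.01 in the other 4 libraries, while that of all features was 0.0 in each library. Without dKO 3, 6 of the 37 genes passed the unadjusted threshold (6.43% of all features), and without wild-type 2, 17 did (14.3% of all features). Without wild-type 1, the median log2 fold change was -0.07 in place of -0.17. Of the 10 genes lower at the unadjusted threshold, 8 had wild-type 2 as their lowest wild-type library.

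Some marker genes of other cell types also passed the unadjusted threshold, which 11.5% of all features did. Of the 5 oligodendrocyte lineage markers, *Olig1*, *Olig2* and *Pdgfra* were lower at that threshold and *Sox10* and *Cspg4* did not pass it (-0.61 and -0.44), and the median was -0.67. Their summed level was 6865 to 11940 normalized counts in the wild-type libraries and 3804 to 6466 in the dKO libraries, with no overlap. The sum was highest in wild-type 1 and lowest in dKO 3. Its largest part was *Olig1*, the only one of the 5 markers without overlap, as were 16.4% of all features. For *Pdgfra*, *Olig2*, *Sox10* and *Cspg4*, a dKO library lay above wild-type 2. The 5 endothelial markers had a median of -0.23, with *Flt1* and *Kdr* lower, and summed to 4414 to 5686 and to 4189 to 4789. Of the 7 genes listed as excitatory neuron markers, *Neurod2*, *Bcl11b* and *Tubb3*, the last a marker of neurons in general, were higher at the unadjusted threshold. Of the same 7, 6 had a positive fold change and the median was 0.23. *Slc17a7*, the vesicular glutamate transporter of mature cortical neurons, was not higher (-0.28, 95% interval -0.71 to 0.14). Markers of ganglionic eminence and interneurons (median -0.02), radial glia and astrocytes (-0.25), microglia (-0.15) and erythroid cells (0.2, with 3 of 5 listed genes found) had no gene past the threshold. Of the 6 radial glia and astrocyte markers, 4 were negative and 2 positive. The lowest were *Aqp4* (-0.98, 95% interval -2.22 to 0.27) and *Gfap* (-0.89, 95% interval -2.06 to 0.28). Only 2 of the 5 choroid plexus markers passed the filter, *Clic6* (-0.73) and *Otx2* (0.58), both at low levels and neither past the threshold. None of the markers in any list had an adjusted *P*-value under 0.05 in limma or edgeR, whereas *Flt1* (0.0241) and *Pdgfra* (0.0475) did in DESeq2. Their part in the lower receptor transcripts was not tested.

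Other genes of the glutamatergic synapse, from a list of receptors, auxiliary subunits, scaffolds, kinases and transporters, were read in the same fit. Of 46 tested, 4 were lower and 0 were higher at an unadjusted *P*-value under 0.05 in limma (8.7%, compared with 11.5% of all features), 33 had a negative fold change, the median was -0.11, and 0 had an adjusted *P*-value under 0.05 in limma or edgeR. In DESeq2, *Frmpd4* did (0.0468). *Frmpd4*, a scaffold that binds PSD-95, held 645.8, 393.1 and 372.6 normalized counts in wild-type and 254.1, 331.5 and 235.4 in dKO libraries, without overlap (-0.75, 95% interval -1.23 to -0.27, unadjusted *P*-value 0.00572). *Lin7b*, a small PDZ scaffold, held 114.1, 91.3 and 144.7 against 57.2, 78.4 and 65.0, again without overlap (-0.78, 95% interval -1.32 to -0.24, unadjusted *P*-value 0.00895). *Grip2*, which binds GluA2, and *Cacng8*, an AMPA receptor auxiliary subunit, were lower by less, with -0.24 and -0.29. Of the 14 auxiliary subunit genes, 11 had a fold change below 0 and the median was -0.14.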

How the data were processed

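PolyA+ RNA of E18.5 cortex (3 wild-type and 3 dKO embryos, grouped by the genotype in their labels) was prepared with a stranded mRNA kit. The authors deposited a signal per gene of the FAST database, a read count divided by a DESeq2 size factor. The submitters' processing notes name FastQC, Picard, SAMtools, STAR 2.7.5a, DESeq2 and mm10, without their order; the counting program and strand setting are not given in the sources used here. Reads were recovered as whole multiples of the smallest value in each library (100.0% whole at a tolerance of 0.02), giving 32966884 to 39654253 reads in wild-type and 31837922 to 40896541 in dKO libraries. There were 0 other columns of per-sample values.

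Features with a mean of at least 10 were tested with limma 3.58.1 (lmFit, eBayes with trend and robust, R 4.3.3) on log2(normalized count + 1), a scale that understates changes of low genes, with Benjamini-Hochberg adjustment over all 18970. Ratios were tested by exact permutation (two-sided) in Python 3.11.15 with scipy 1.17.1. The scripts were tested on simulated data with 200 changed features of 18970. At an adjusted *P*-value under 0.05, limma made 19 false calls, edgeR 20 and DESeq2 48. Exon lengths were GENCODE M21 exon bases inside each deposited feature, pooled over all annotated transcripts of the gene. Alternatives were pseudocounts of 0.1 and 10, no filter and a mean of at least 50, TMM rescaling, quantile normalization, limma without trend and robust, the recovered reads fitted with edgeR 4.0.16 and DESeq2 1.42.0, a block for the replicate number, and each library left out.

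Values in every library are given for genes with an unadjusted *P*-value under 0.05, genes whose genotypes do not overlap, *Grin1*, *Dlgap4* and *Shank3*, and the genes with the highest and lowest level per kilobase of each class. The genes and lists were chosen with earlier results of these data known. Splicing was not analysed here.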

Additional observations from a re-analysis of the deposited data

How the results depend on the processing

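Of 242 recomputed fold changes of 15 named genes, 238 kept their direction. These genes include the 11 chosen for an unadjusted *P*-value under 0.05, and *Dlgap2*, chosen because its genotypes do not overlap. Where genotypes do not overlap, leaving out a library cannot reverse the direction. The count was thus largely fixed by the choice of genes and does not measure robustness. *Dlgap4* was at -0.0 with quantile normalization, *Grin2a* between -0.7 and 0.26 with a library left out (0.03 without wild-type 1, 0.26 without dKO 3), and *Grin2b* at -0.0 with the last-exon features. The genes with an adjusted *P*-value under 0.05 numbered 1 in place of 0 with DESeq2, and 0 to 1 with each library left out (1 without wild-type 2). At the unadjusted threshold, limma without trend and robust left 7 of the 11 genes (9.88% of all features), losing *Gria2*, *Gria4*, *Grin1* and *Homer3*, and leaving out a library gave 6 (without dKO 3) to 17 (without wild-type 2). The median log2 fold change lay between -0.2 and -0.07 (without wild-type 1) when a library was left out. Genes without overlap numbered 10 to 19 when a library was left out (19 without wild-type 2 and 16 without dKO 2, with 33.0% and 30.2% of all features), a comparison of 2 with 3 libraries and a check chosen after seeing the data, as were the sums with last-exon features. The other glutamatergic genes at the unadjusted threshold numbered 7 without the filter and with DESeq2 (9.12% and 11.6% of all features). They numbered 8 with quantile normalization, where fewer of all features passed than in the main fit. When a library was left out, they numbered 3 to 10. The count was 3 without wild-type 1 or dKO 3 (8.1% and 6.43% of all features) and 10 without wild-type 2 (14.3%). Over all features, adjusted calls numbered 7 without trend and robust and 202 with DESeq2, in place of 19, and 7 (without dKO 3) to 46 (without dKO 1) with a library left out. With a library left out, the difference in log2 ratio ranged from -0.08 to 0.1 for *Gria1* to *Gria2*, 0.01 to 0.93 for *Grin2b* to *Grin2a*, -0.71 to -0.17 for *Camk2a* to *Camk2b*, -0.19 to -0.07 for *Dlg4* to *Dlg3* and -0.34 to -0.12 for *Shank3* to *Shank1*. With the replicate number as a block, 12 of the 37 genes passed the unadjusted threshold (12.2% of all features), as did 7 of the other glutamatergic genes, and 9 features had an adjusted call; same-numbered libraries correlated at 0.098, -0.228 and -0.079, so that they share only a number. The cause of these shifts was not tested.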

Other observations

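A feature without a symbol inside an intron of *Camk2b* (chr11:6006262-6008330, mm10), singled out after its values were seen, varied far more than the gene around it. It held 448.9, 79.5 and 1250.2 normalized counts in wild-type and 1835.0, 692.3 and 1113.5 in dKO libraries. The genotypes overlapped, and the log2 fold change was 1.66 in limma (95% interval -1.58 to 4.89; 0.58 to 2.56 with a library left out) and 1.03 in edgeR and DESeq2.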
